A study of Mus musculus with 12 samples.

Results

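The family of miR-130 and miR-301 was followed in the livers of C57Bl/6 mice at 4 ages, namely embryonic day 15.5 (e15.5, mixed gender) and 2, 3 and 7 weeks after birth (males). The family was defined by name as miR-130a, miR-130b, miR-301a and miR-301b, and the analysed table of 355 probes held 3 of the 4 names: mmu-miR-130a, mmu-miR-130b and mmu-miR-301a (here written without the species prefix). A probe for miR-301b was not analysed here. Each age had 3 livers, 12 in all, with no treatment or altered allele named in the labels. Total RNA was measured with the nanoString nCounter mouse miRNA assay, which counts barcoded probes bound to each miRNA, and values were deposited on a log2 scale. The postnatal ages were all male and the e15.5 livers of mixed gender, so against e15.5 the effect of sex and that of age cannot be told apart. Whether 1 embryo or a pool made up an e15.5 sample is not stated in the labels. The family was picked partly because miR-301a was lower at 7 than at 3 weeks. For that pair of ages, and for miR-301a in every comparison that uses 3-week or 7-week livers, values are therefore given as a description without a test.

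MicroRNAs guide Argonaute proteins to messenger RNAs, mainly through pairing of their seed, the bases near the 5′ end. MicroRNAs with the same seed form a family, because they can pair with the same sites. Members of the miR-130 and miR-301 family are known to repress transcripts such as that of the adipogenic nuclear receptor PPARγ. The fetal liver is also a blood-forming organ, and its blood-forming cells leave it around birth.

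The mature sequences below, 5′ to 3′ from RefSeq on build GRCm38.p6, are shown because the shared seed and the differing bases after it define what the 3 probes can tell apart. Capitals mark the seed, bases 2 to 8. The probe names give no arm, and the 3p arm, which carries the family seed, is shown.
miR-130a: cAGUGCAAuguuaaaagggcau
miR-130b: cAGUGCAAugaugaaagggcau
miR-301a: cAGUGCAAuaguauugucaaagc
These sequences lie at chr2:84741116-84741137 (minus strand), chr16:17124071-17124092 (minus strand) and chr11:87113054-87113076 (plus strand), respectively. In the RefSeq gene table the miR-301a hairpin lies within Ska2, which encodes a spindle and kinetochore protein. The miR-130b hairpin lies within the protein-coding gene 2610318N02Rik, 257 bases from the hairpin of miR-301b, and no other gene of the table overlaps the miR-130a hairpin. Counted from 1 at the 5′ end, miR-130a and miR-130b are identical in 20 of 22 bases and differ by U11A and A13G (miR-130a base first). Over the same 22 positions miR-301a shares 12 bases with miR-130a and 11 with miR-130b. The miR-301b hairpin holds a stretch that matches miR-301a in 22 of 23 bases, with A10G as the only difference (miR-301a base first). Whether the miR-301a probe also reads miR-301b, or the probes of miR-130a and miR-130b read each other's target, was not tested.

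All 3 probes lay above the floor in all 12 livers, as did 114 of the 355 probes. The floor is the single lowest value of the data, read here as a signal at or below background. The linear signal summed over all probes of a liver ranged from 148505 to 172057 at e15.5 and from 486743 to 618776 at 2 weeks. It ranged from 478381 to 539127 at 3 weeks and from 236867 to 267915 at 7 weeks. Across the 114 probes, livers of the same age correlated at 0.96 to 0.99 and livers of different ages at 0.58 to 0.98. The 100 brightest probes were on average 1.75 higher at 2 weeks, 1.39 higher at 3 weeks and 0.27 higher at 7 weeks than at e15.5 (log2). Levels by age and changes of the family are therefore given as deposited and after centring, which subtracts from each liver the mean log2 value of its 100 brightest probes.

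miR-130a, the brightest of the family probes at every age, had deposited log2 values of 10.55, 10.15 and 10.37 in e15.5 mice 1 to 3. At 2 weeks it was at 12.84, 12.36 and 12.25, and at 3 weeks at 11.95, 12.14 and 12.31. At 7 weeks it was at 10.13, 10.05 and 10.09. The 2-week and 3-week livers overlapped each other and lay above all e15.5 and 7-week livers, and the 7-week livers lay just below the e15.5 livers. On the linear scale the e15.5 mean was 1321 ± 184 (SD, n = 3, here and below). The 2-week mean was 5828 ± 1334, the 3-week mean 4523 ± 553 and the 7-week mean 1093 ± 30.4. After centring the log2 means were 1.87 ± 0.26 in the e15.5, 2.25 ± 0.17 in the 2-week, 2.26 ± 0.13 in the 3-week and 1.33 ± 0.09 in the 7-week livers, and the groups overlapped in the same way.

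miR-130b was the probe with the highest fetal level relative to its later levels. Its deposited log2 values were 8.59, 8.995 and 8.72 in the e15.5 livers and 6.11, 6.13 and 6.15 at 2 weeks. They were 4.75, 4.72 and 4.49 at 3 weeks and 5.49, 5.72 and 4.26 at 7 weeks. Every e15.5 liver lay above every postnatal liver, every 2-week liver above every 3-week and 7-week liver, and the 7-week livers spanned the 3-week range, with mouse 3 the lowest of all 12. The e15.5 mean was 439 ± 64.1 on the linear scale. The 2-week mean was 69.9 ± 0.96, the 3-week mean 25.2 ± 2.4 and the 7-week mean 38.9 ± 17.6. After centring the log2 means were 0.28 ± 0.15 in the e15.5, -4.11 ± 0.16 in the 2-week, -5.23 ± 0.25 in the 3-week and -3.60 ± 0.71 in the 7-week livers. On that scale the 3-week livers were the lowest and the 7-week livers overlapped the 2-week livers. The later values are low, so the size of folds that use them depends on the subtraction of background, a step not given in the sources used here. The size of these folds would also depend on any reading of the far brighter miR-130a by the miR-130b probe, which was not tested.

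miR-301a had deposited log2 values of 7.45, 7.44 and 7.36 at e15.5 and of 8.74, 8.48 and 8.20 at 2 weeks. At 3 weeks it was at 7.62, 7.89 and 7.94, and at 7 weeks at 5.86, 5.12 and 5.11. In the order 2 weeks, 3 weeks, e15.5 and 7 weeks, no 2 neighbouring ages overlapped. Its e15.5 mean was 171 ± 5.78 on the linear scale. Its 2-week mean was 360 ± 67.9, its 3-week mean 226 ± 26.3 and its 7-week mean 42.4 ± 13.5. After centring the order of ages was different, with e15.5 the highest (mean -1.08 ± 0.06), followed by 2 weeks (-1.76 ± 0.14), 3 weeks (-2.06 ± 0.17) and 7 weeks (-3.40 ± 0.41). On that scale the 2-week and 3-week livers overlapped, and the other neighbours did not.

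**Figure D1:**
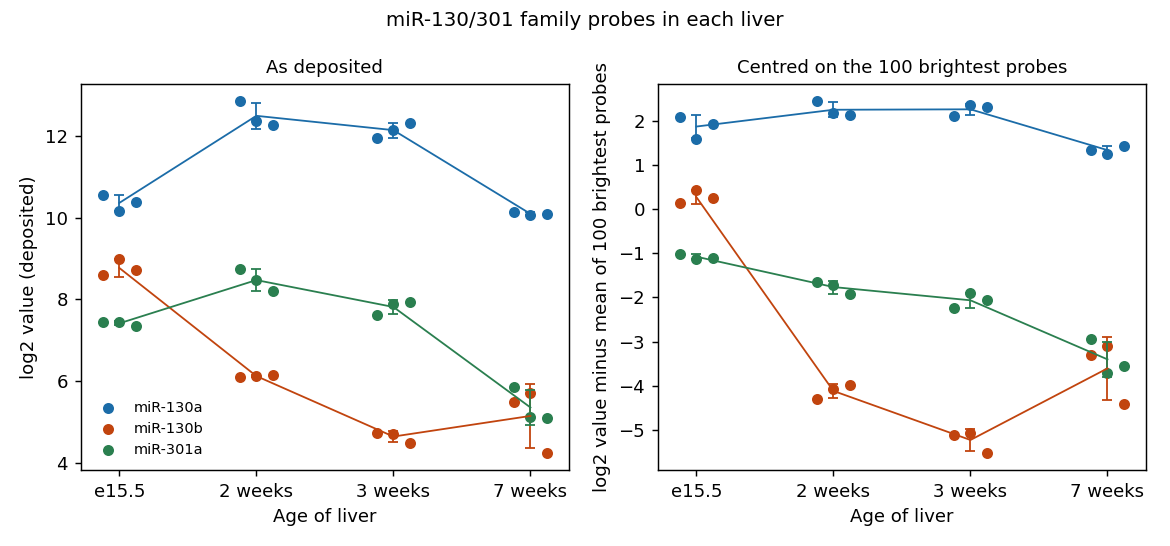
Log2 values of miR-130a, miR-130b and miR-301a in each of the 12 livers by age, as deposited (left) and centred on the 100 brightest probes of each liver (right); points are livers, lines join the age means and bars are SD (n = 3). miR-130b is highest at e15.5 on both scales, whereas miR-301a at 2 weeks lies above e15.5 as deposited and below it after centring.

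The first comparison, of livers at 2 weeks and at e15.5, asked how the family moved between fetal and early postnatal liver, and it is the one pair of ages in which all 3 probes could be tested. miR-130a was higher at 2 weeks by 2.13 ± 0.16 (log2 change ± SE, here and below), or 4.37-fold (limma, Benjamini-Hochberg adjusted p = 1.2e-06). miR-130b fell by 2.64 ± 0.33, which is 6.24-fold lower (limma, adjusted p = 7.1e-05). miR-301a was higher by 1.06 ± 0.23 as deposited, or 2.08-fold (limma, adjusted p = 0.0030). The exact permutation test of each probe gave p = 0.1, the smallest that 3 livers against 3 allow.

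The members' calls stand against a background in which 28.2% of the 355 probes were called higher and 22% lower at 2 weeks as deposited, so a call in either direction was common. The 78 probes called lower became 118 without e15.5 mouse 1, 51 without e15.5 mouse 2 or 2-week mouse 2, and 49 without e15.5 mouse 3 or 2-week mouse 3. Among the 114 probes above the floor in all livers, to which the family belongs, 79 were called higher and 16 lower as deposited. In that set a higher call was therefore the usual one. After centring, 19.2% of the 355 probes were called higher and 45.6% lower. On that scale miR-130a was higher by 0.38 ± 0.14 (adjusted p = 0.038), a call lost when each liver was centred on the median of the 114 probes instead (0.36, adjusted p = 0.088). miR-130b fell by 4.39 ± 0.32 after centring, or 20.9-fold (adjusted p = 1.0e-06). The direction of miR-301a turned: after centring it fell by 0.69 ± 0.20 (adjusted p = 0.014), and after quantile normalisation its change was 0.14 (adjusted p = 0.72). The direction of the miR-301a difference between these ages therefore depends on the scaling.

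A shift added to all log2 values of a liver, as in centring, cancels in the difference between probes of that liver. Quantile normalisation is not such a shift and was run apart. The deposited log2 value of miR-130a minus that of miR-130b was 1.96, 1.15 and 1.66 in the e15.5 livers and 6.74, 6.24 and 6.10 at 2 weeks. It was 7.21, 7.42 and 7.82 at 3 weeks and 4.64, 4.34 and 5.84 at 7 weeks. The 9 postnatal livers lay above the 3 e15.5 livers without overlap, at 6.26 ± 1.20 (SD, n = 9) against 1.59 ± 0.41 (SD, n = 3). This change of 4.67 gave an exact two-sided permutation p = 0.0045, the smallest that 9 livers against 3 allow, for a contrast chosen after its values were seen. After quantile normalisation the change was 4.29 (exact permutation p = 0.0045). Because the separation was seen before the contrast was chosen, both p-values restate it and add no support. The 9 postnatal livers are also of 3 ages, with means of 6.36, 7.48 and 4.94 at 2, 3 and 7 weeks. They are therefore not 9 replicates of 1 condition. In these values the 2 miRNAs, which differ at only 2 bases outside the seed, moved apart between fetal and postnatal liver as deposited and after quantile normalisation. How many other pairs of probes part in this way was not counted, so the separation is not shown to be particular to this pair.

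The change of miR-301a from e15.5 to 2 weeks lay between those of its relatives, although its signal at e15.5 was the lowest of the 3. Its difference from miR-130b changed by 3.70 between e15.5 (-1.35 ± 0.21, SD, n = 3) and 2 weeks (2.35 ± 0.29). The difference of miR-130a from miR-301a changed by 1.07 over the same ages, from 2.94 ± 0.21 to 4.01 ± 0.11. After quantile normalisation these changes were 4.18 and 0.76. Neither pair of groups overlapped as deposited, and each exact permutation p was 0.1, the smallest possible. Here too the share of other probe pairs that separate was not counted. The difference of miR-130a from miR-301a was 4.32 ± 0.06 at 3 weeks and 4.73 ± 0.40 at 7 weeks, where the ranges of 4.25 to 4.37 and 4.28 to 4.99 overlapped. miR-301a minus miR-130b was 3.16 ± 0.29 at 3 weeks and 0.21 ± 0.74 at 7 weeks.

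**Figure D2:**
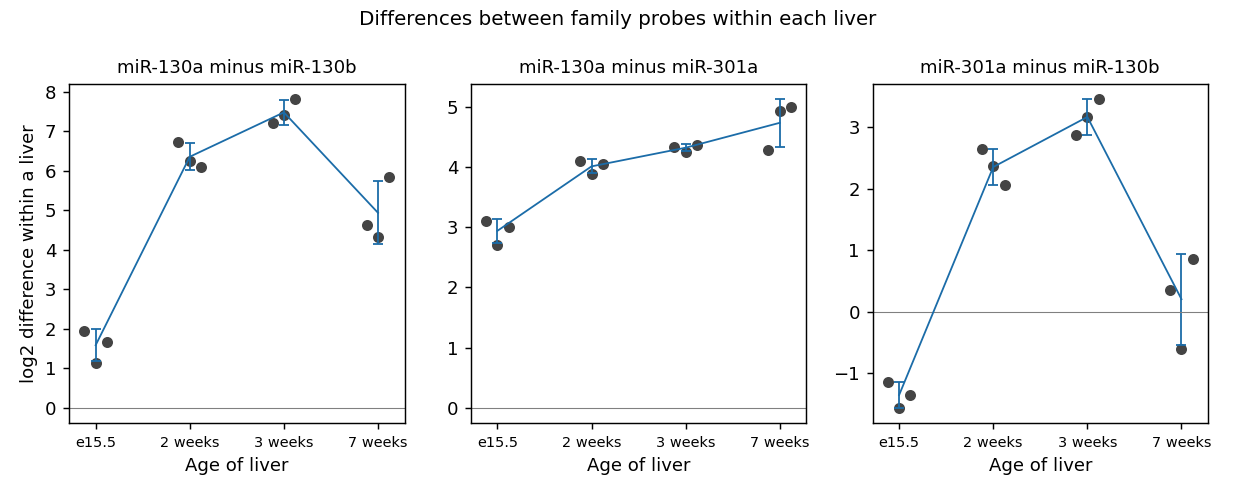
Log2 difference between 2 family probes within each liver, by age, with the mean and SD (n = 3); a shift of all log2 values of a liver cancels in these values. The e15.5 livers are the lowest in all 3 panels, and miR-130a minus miR-130b goes from 1.59 at e15.5 to 7.48 at 3 weeks.

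Against e15.5, the 3-week and 7-week livers were set beside the same 3 fetal livers, so the comparisons share those samples. At 3 weeks miR-130a was higher by 1.78 ± 0.16 as deposited (limma, adjusted p = 4.4e-06) and by 0.39 ± 0.14 after centring (adjusted p = 0.032), but the call was lost after quantile normalisation (0.56, adjusted p = 0.091). miR-130b fell by 4.12 ± 0.33 as deposited, or 17.3-fold (limma, adjusted p = 1.9e-06), and its centred change was -5.50 ± 0.32, or 45.3-fold lower (adjusted p = 1.3e-07). Of all 355 probes, 25.6% were called higher and 32.7% lower in that comparison, and 18% and 49.9% after centring. In the fit to the 114 probes above the floor in all livers, 73 were called higher and 24 lower as deposited. The change of miR-301a was 0.40 as deposited and -0.99 after centring, with no test.

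At 7 weeks miR-130b was still 12.2-fold lower than at e15.5, with a change of -3.61 ± 0.33 (limma, adjusted p = 5.6e-06) and -3.88 ± 0.32 after centring (adjusted p = 2.0e-06). miR-130a was not called as deposited (-0.26, 95% interval -0.63 to 0.10, adjusted p = 0.25), but after centring it fell by 0.53 (adjusted p = 0.0095). In that comparison 18.6% of probes were called higher and 26.2% lower as deposited, and 17.5% and 29.3% after centring. Among the 114 probes above the floor in all livers, 55 were called higher and 32 lower as deposited. miR-301a was lower by 4.16-fold as deposited (-2.06) and by 5.0-fold after centring (-2.32), with no test.

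The next comparisons were made within postnatal life. From 2 to 3 weeks miR-130b fell by 1.47 ± 0.33 as deposited (limma, adjusted p = 0.011) and by 1.11 after centring (adjusted p = 0.047), where 15.5% and 10.1% of probes were called lower and 0.282% and 2.54% higher. The call was lost after quantile normalisation (-0.26, adjusted p = 0.98) and after centring on the median (-1.05, adjusted p = 0.12). The share called higher rests on 1 probe as deposited, which became 2 or 3 probes when any of 5 livers was left out (e15.5 mice 1 to 3 and 2-week mice 1 and 3). Among the 114 probes above the floor in all livers, 35 were called lower and 2 higher as deposited. miR-130a was not called from 2 to 3 weeks (-0.35, 95% interval -0.71 to 0.01, adjusted p = 0.24), and its centred change was 0.01 (adjusted p = 0.96). The change of miR-301a was -0.66 as deposited and -0.30 after centring, a step given without a test.

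From 2 to 7 weeks miR-130a fell by 2.39 ± 0.16, or 5.24-fold (limma, adjusted p = 5.5e-07), and by 0.91 after centring (adjusted p = 0.00056). As deposited 36.1% of probes were called lower and 7.32% higher in this comparison, and after centring 16.3% and 13.8%. The 26 probes called higher as deposited moved by over 1.5 times with any of the 12 livers left out, from 13 without e15.5 mouse 3 or 3-week mouse 3 to 53 without 7-week mouse 3. Among the 114 probes above the floor in all livers, 91 were called lower and 5 higher as deposited. miR-130b was lower by 0.97 as deposited (change -0.97 ± 0.33, adjusted p = 0.040), but this call was lost when any of 9 livers was left out in turn, and after centring the change was 0.51 with overlapping groups (adjusted p = 0.26). Without 7-week mouse 3 the deposited change was -0.52 (adjusted p = 0.051), and with any 2-week liver left out the adjusted p was 0.089 to 0.091. miR-301a had a change of -3.11 as deposited and -1.63 after centring, with no test.

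Between 3 and 7 weeks, the interval used to choose the family, the log2 value of miR-301a changed by -2.45 (5.48-fold lower at 7 weeks), and by -1.33 after centring. That of miR-130a changed by -2.04 as deposited and by -0.92 after centring. miR-130b differed in direction from both, with 0.50 as deposited and overlapping groups, and 1.62 after centring without overlap. In this interval 11.8% of probes were called higher and 29.6% lower as deposited, and 17.7% and 10.1% after centring, so the balance of calls turned with the scaling. After quantile normalisation 33 probes were called higher and 36 lower. The 42 probes called higher as deposited became 22 without 3-week mouse 1 and 69 without 7-week mouse 3, and any of 9 livers left out moved the count by over 1.5 times. Among the 114 probes above the floor in all livers, 84 were called lower and 3 higher as deposited.

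The rank of each probe's signal among the 355 probes of its liver is a further scale that needs no normalisation. It also reflects how well each probe captures its target and how the other probes of the liver move. miR-301a ranked 83 to 90 in the e15.5 livers, 82 to 85 in the 2-week, 83 to 90 in the 3-week and 104 to 135 in the 7-week livers. The ranges of the first 3 ages overlapped and the 7-week livers lay apart. The 7-week values of miR-301a helped to pick the family, so that separation is a description only. miR-130b had a mean rank of 47.7 ± 3.06 (SD, n = 3) in the e15.5 livers, 135 ± 5.51 in the 2-week, 139 ± 9.29 in the 3-week and 120 ± 11.5 in the 7-week livers. miR-130a ranked 20 to 32 in the e15.5 livers, 11 to 17 in the 2-week livers, 15 to 19 in the 3-week livers and 27 in each 7-week liver. As a share of a liver's total signal, miR-301a made up 0.102 to 0.111% in the e15.5 livers, 0.0591 to 0.0735% in the 2-week, 0.0401 to 0.0495% in the 3-week and 0.0129 to 0.0245% in the 7-week livers.

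Markers of the cell types of the liver moved over the same ages. The 6 hepatocyte probes together took 8.03 to 10.6% of the total signal at e15.5, with miR-802 and miR-101a at the floor in all 3 livers, and 33.7 to 46.3% in the postnatal livers. One of these hepatocyte probes is miR-148a, which is also named below for its seed. The 3 erythroid probes (miR-144, miR-451 and miR-486) took 7.21 to 10.5% at e15.5 and 1.01 to 2.30% after birth, and the 6 leukocyte probes 4.09 to 4.98% and 0.53 to 0.80%. These shares also depend on the total signal, which was higher after birth. The linear sum of the erythroid probes was 12411 to 17254 at e15.5 and 8987 to 10801 at 2 weeks. It was 9643 to 11275 at 3 weeks and 2712 to 5271 at 7 weeks. That of the leukocyte probes was 7035 to 7420 at e15.5 and 3150 to 3693 at 2 weeks. It was 2631 to 2870 at 3 weeks and 1685 to 1896 at 7 weeks. In these bulk samples fewer cells of a type and less RNA per cell cannot be told apart. The fall of miR-130b from e15.5 to 2 weeks went with called falls in 2 of 3 erythroid and 2 of 6 leukocyte probes as deposited (1 erythroid and 2 leukocyte probes were higher). After centring 3 of 3 erythroid and 4 of 6 leukocyte probes fell and 2 leukocyte probes were higher. Over all 355 probes 22% were called lower as deposited and 45.6% after centring, and the part of these markers in the fall of miR-130b was not tested. The 2 endothelial probes (miR-126) took 2.97 to 3.41% in the e15.5 livers, 7.20 to 8.21% in the 2-week, 5.25 to 5.80% in the 3-week and 4.31 to 4.70% in the 7-week livers, and the 5 stellate and mesenchymal probes took 0.58 to 1.29% over all 12 livers. The part of these cells in the course of miR-130a and miR-301a was not tested either.

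Other miRNAs on the assay share 6 of the 7 seed bases with the family, shifted by 1 position, and are shown because such seeds can pair with overlapping sites. The capitals mark the 6 shared bases.
miR-148a: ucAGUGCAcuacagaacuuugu
miR-148b: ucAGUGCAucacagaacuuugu
miR-152: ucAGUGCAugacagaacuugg
miR-19a: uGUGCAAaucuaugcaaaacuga
miR-19b: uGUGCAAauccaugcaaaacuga
The first 3 hold the first 6 bases of the family seed at their bases 3 to 8, and the miR-19 pair, part of the proliferation-linked cluster of miR-17, holds the last 6 at bases 2 to 7. The search used the mature RefSeq sequences of the 278 probes that matched by name. The probe of miR-350 was set aside, because only its 5p arm holds the bases and its name does not give the arm.

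These 5 probes did not move as a group. From e15.5 to 2 weeks miR-148a, miR-148b and miR-152 were higher by 4.48 ± 0.16, 1.47 ± 0.16 and 2.45 ± 0.16 as deposited (limma, adjusted p = 2.7e-09, 2.8e-05 and 4.2e-07). miR-19a fell by 1.29 ± 0.08 (adjusted p = 2.1e-07), and miR-19b was not called (-0.21, 95% interval -1.02 to 0.60, adjusted p = 0.62). After centring, miR-148a and miR-152 remained higher (2.73 and 0.70), miR-19a and miR-19b fell by 3.04 and 1.95, and miR-148b was not called (-0.28, adjusted p = 0.16). The median change of the 5 was 1.47 as deposited, against -1.34 over all 355 probes and 1.96 over the 114 above the floor in every liver.

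Set against miR-301a within each liver, the change of miR-301a from e15.5 to 2 weeks minus that of miR-148a was -3.42. The same difference was -1.39 for miR-152, -0.41 for miR-148b, 2.35 for miR-19a and 1.27 for miR-19b. In each of these 5 comparisons the groups of 3 livers did not overlap and the exact permutation p was 0.1, the smallest possible. How many other probes part from miR-301a in the same way was not counted. The 5 comparisons therefore show nothing particular to overlapping seeds.

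**Figure D3:**
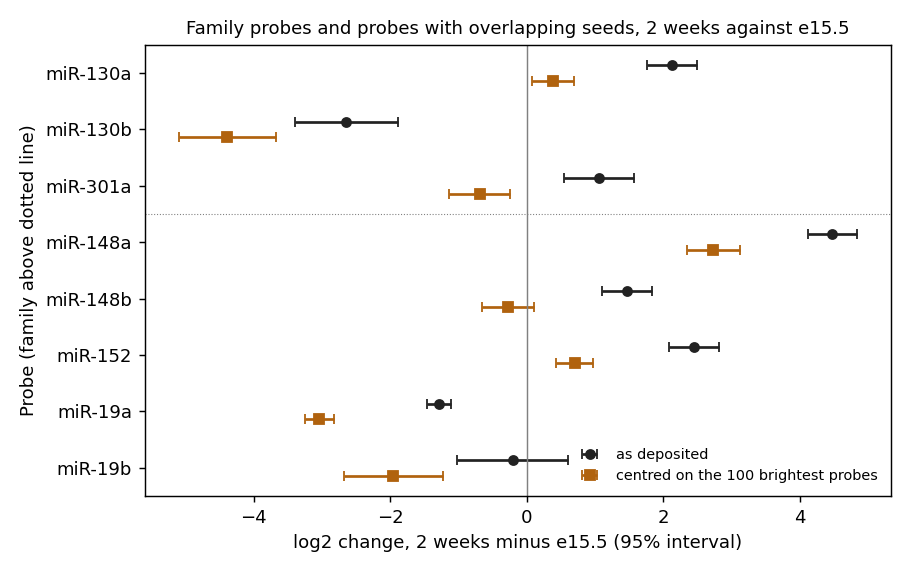
Log2 change from e15.5 to 2 weeks with its 95% interval (limma, 3 livers per age) for the 3 family probes, above the dotted line, and the 5 probes with overlapping seeds, as deposited (circles) and centred on the 100 brightest probes (squares). Centring moves every probe down by 1.75, which takes miR-301a from 1.06 to -0.69 and leaves miR-130b below 0 and miR-148a above 0 on both scales.

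The probes whose course was most like that of miR-301a were sought among the 111 other probes above the floor in all livers, by Pearson correlation over the 12 livers, which share the differences in total signal between ages. As deposited they were miR-532-5p (r = 0.978), miR-335-5p, hosted by the imprinted gene Mest (0.976), miR-199a-5p, a mesenchymal miRNA (0.973), miR-106b, hosted by the replication gene Mcm7 (0.972), and miR-99b (0.942). After centring they were miR-532-5p (0.963), miR-335-5p (0.960), let-7i (0.924), miR-106b (0.909) and miR-99b (0.899), so 4 of the 5 were named on both scales. By this measure miR-301a correlated at 0.817 with miR-130a and 0.196 with miR-130b as deposited, and at 0.623 and 0.514 after centring. These values lie below those of the 5 named probes, but the 5 were picked as the highest of 111. Where the relatives would stand among the 111 was not counted. miR-130a and miR-130b correlated at -0.374 as deposited and -0.304 after centring. The order depends on the measure. By Spearman correlation miR-130a reached 0.979 with miR-301a as deposited, equal to the highest of the 111 probes, and 0.392 after centring. Livers of 1 age lie close together, so these values describe the course over 4 ages.

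The course of miR-532-5p ran beside that of miR-301a in the age means. Its deposited log2 values were 6.07 ± 0.07, 7.16 ± 0.32, 6.77 ± 0.33 and 4.37 ± 0.13 (SD, n = 3) at e15.5 and 2, 3 and 7 weeks. miR-335-5p had 8.06 ± 0.34, 9.03 ± 0.21, 8.40 ± 0.02 and 5.58 ± 0.34 at the same ages.

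**Figure D4:**
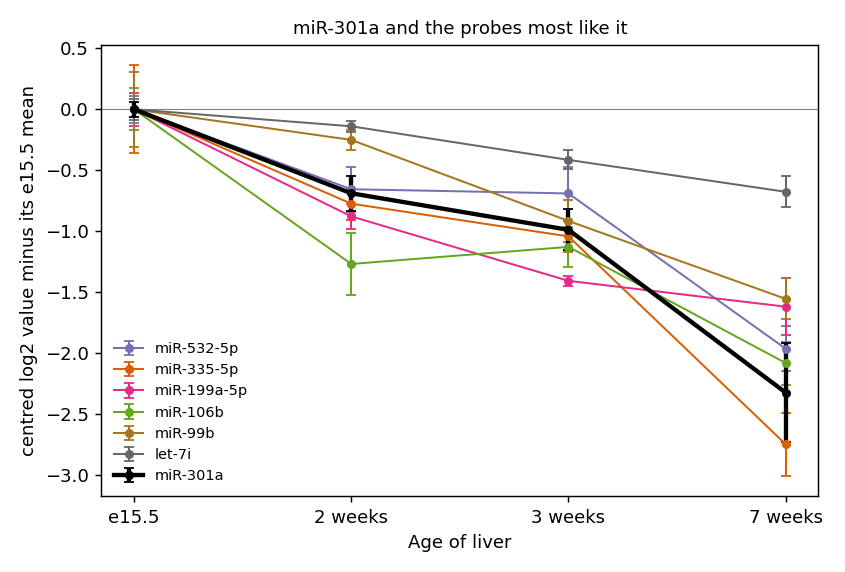
Centred log2 value minus its e15.5 mean for miR-301a (thick black line) and the 6 probes named as most like it on either scale, by age, with SD bars (n = 3 livers). All 7 lie below their e15.5 mean at every postnatal age, and miR-301a and miR-335-5p are the lowest at 7 weeks.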

How the data were processed

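Livers of 4 ages with 3 samples each were grouped by the age in their labels. Values are the authors' deposited log2 values, 1 column per liver, processed with Partek 6.6 per the submitters' processing notes. Background subtraction and scaling between samples are not given in the sources used here. The lowest value of the table, -9.97, was read as a floor. Raw counts were not used, so the depth is unknown and total linear signal is given instead. No column was a copy of another.

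A linear model with a mean for each age was fitted to all 12 livers with limma 3.58.1 in R 4.3.3 (eBayes, trended variances). Its two-sided p-values were adjusted over the 355 probes (Benjamini-Hochberg, threshold 0.05). With 3 livers per age, nothing in the labels beyond the mouse number shows how independent they are, and p-values measure only the spread between them. Differences between 2 probes within a liver were compared by exact two-sided permutation (9 comparisons in all, unadjusted). The fit was tested on simulated data with 100 changed probes and no values at the floor. That test therefore does not cover probes that move between the floor and detection. Sequences came from RefSeq tables of GRCm38.p6. Figures used matplotlib 3.10.9.

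The members, lists and tests were chosen with earlier results of these data known. Named were all family probes, the 5 probes most like miR-301a on each scale and probes sharing 6 seed bases. Of the cell type lists, the biliary and epithelial one (5 probes) took 0.0515 to 0.362% of the signal.

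Alternatives were 3 other scalings, 2 pseudocounts (1 and 10), 2 filters, each liver left out, a block for the mouse number, untrended variances and a fit to 2 ages at a time. Same-numbered livers of different ages deviated together (r over 0.1) in 7 of 18 pairs, and differently numbered ones in 13 of 36 pairs.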

Additional observations from a re-analysis of the deposited data

How the results depend on the processing

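Scaling had the largest effect. Centring on the median of the probes above the floor in all livers gave, from e15.5 to 2 weeks, -0.71 for miR-301a (adjusted p = 0.027) and 0.36 for miR-130a (adjusted p = 0.088). It gave -0.54 for miR-130a from e15.5 to 7 weeks (0.027), 0.075 for miR-130a from 2 to 3 weeks (0.95), -1.05 for miR-130b from 2 to 3 weeks (0.12), 0.52 for miR-130b from 2 to 7 weeks (0.32) and -0.95 for miR-301a from e15.5 to 3 weeks. Centring on the 100 brightest probes gave -0.69 for miR-301a from e15.5 to 2 weeks, -0.99 for it from e15.5 to 3 weeks, -0.53 for miR-130a from e15.5 to 7 weeks, 0.011 for it from 2 to 3 weeks, and 0.51 for miR-130b from 2 to 7 weeks. Quantile normalisation gave 0.14 for miR-301a from e15.5 to 2 weeks, 0.56 for miR-130a from e15.5 to 3 weeks (0.091), -0.26 for miR-130b from 2 to 3 weeks and 0.72 for miR-130b from 2 to 7 weeks (0.14). The cause of these changes was not tested beyond the shift of the bright probes given above.

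The change of miR-130b from 2 to 7 weeks, -0.97, had adjusted p = 0.058 without a variance trend and 0.17 with only the 2 ages compared, and lay between -1.25 and -0.52 with each liver left out (0.015 to 0.091). The other tested changes of the family kept their call with each liver left out: miR-301a from e15.5 to 2 weeks lay between 0.92 and 1.20. The falls of miR-130b from e15.5 kept direction and call under all alternatives. Adding 10 to the linear values made its 3-week fall -3.66. The differences between probes within a liver kept their direction in all 87 alternatives run. Of these, all alternatives for pairs of family probes, and all with quantile normalisation, were not planned and were chosen after seeing the data. As deposited, none of the 5 probes most like miR-301a by Pearson correlation was among the 5 by Spearman (0 shared), and after centring 2 were shared (let-7i and miR-335-5p).

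The number of probes called, out of the 114 above the floor in all livers, was 95 from e15.5 to 2 weeks, 97 to 3 weeks and 87 to 7 weeks, 37 from 2 to 3 weeks, 96 from 2 to 7 weeks and 87 from 3 to 7 weeks, where fewer probes were tested. Among all 355 probes it was 178, 207, 159, 56, 154 and 147. Quantile normalisation gave 26 from 2 to 3 weeks, 93 from 2 to 7 weeks and 69 from 3 to 7 weeks, and centring on the median gave 97 from 3 to 7 weeks. With the mouse number as a replicate block, 171 probes were called from e15.5 to 2 weeks, miR-301a had adjusted p = 0.0060 there, and no call of the family changed. The livers share only that number: 3 of 12 were closest to a liver of another age with the same number.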

Other observations

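By Spearman correlation on the deposited values, which uses the order of the 12 livers alone, the probes most like miR-301a were let-7i (rho = 0.979), miR-125a-5p (0.979), let-7e (0.972), miR-181a (0.965) and miR-199a-3p (0.951). Its relative miR-130a reached the same rho of 0.979, although its Pearson correlation with miR-301a was lower than that of the probes named above. After centring, the 5 were let-7i (0.944), miR-25 (0.944), miR-93 (0.944), miR-335-5p (0.930) and the probe of miR-20a+miR-20b (0.916), and miR-130a was at 0.392. miR-25 and miR-93 share a primary transcript with miR-106b. These probes were named after their values were seen.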
